A study of Mus musculus with 6 samples.

Results

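The dorsal skin of tight skin (TSK) mice was compared with the skin of wild-type (WT) littermates for 49 genes of the transforming growth factor beta (TGF-β) and bone morphogenetic protein (BMP) pathways. The genes were chosen by name, as ligands, receptors, Smads, antagonists, repressors and target genes, out of 55291 genes in the count table, with no threshold on a measured value. Earlier results of these data were known when they were listed. In these pathways a secreted ligand brings together type I and type II receptors on the cell surface, and the type I receptor then phosphorylates Smad proteins that enter the nucleus with Smad4. TGF-β and activins act mainly through Smad2 and Smad3, whereas BMPs act mainly through Smad1, Smad5 and Smad9. In skin, TGF-β is best known for driving matrix production by fibroblasts, BMPs shape the hair cycle, and the microfibrils that fibrillin 1 builds hold stores of both kinds of ligand.

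RNA was isolated from the shaved dorsal skin of 3 TSK mice and 3 WT littermates, and 1 library was sequenced per mouse. All 6 mice were C57BL/6 and 6 to 8 weeks old by label, and the methods of the study give 8 weeks. In TSK mice part of Fbn1, the fibrillin 1 gene, is duplicated, and the allele is kept by backcrossing to C57BL/6, so the mutation is present in every tissue of the animal, and WT mice lack it. The labels do not give the number of mutant copies, and no other allele or treatment is named for either group. According to the study, homozygotes die before birth and heterozygotes live, so these TSK mice would be heterozygous. The labels call the mice female and the methods of the study call them male, and Y-linked transcripts (Ddx3y, Eif2s3y, Kdm5d and Uty) were present in every library, at CPM (counts per 1000000) of 24.3 to 81.0, while Xist was at 2.44 to 5.57 CPM. The 6 libraries therefore go against their label in the same way.

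Library totals were 17561453 to 19219814 counts. All CPM values below are scaled by TMM, a method that limits the weight of a few abundant genes, with factors of 0.823 to 1.03 in WT and 1.06 to 1.13 in TSK. Fbn1 was at 261, 351 and 296 CPM in the WT libraries and reached 1450, 2053 and 1781 CPM in the TSK libraries (log2 fold change 2.54, SE 0.22, adjusted p = 0.00327). Summed markers of other cell types also differed. The 16 adult skeletal muscle markers summed to 166265 to 301877 CPM in WT and 130652 to 158572 CPM in TSK, and the 11 fibroblast markers to 6244 to 10961 and 18500 to 42451 CPM. The fibroblast list includes the collagen genes Col1a1, Col1a2 and Col3a1, so its sum also counts collagen RNA. Muscle markers were abundant in this skin, and no marker of either list was at 0 in all libraries. The 10 adipocyte markers (median log2 fold change 2.80) summed to 572 to 1022 CPM in WT and 961 to 4703 CPM in TSK, with TSK 2 the highest. The 12 hair follicle markers (median 1.48) summed to 42.7 to 82.1 CPM in WT and 55.8 to 72.8 CPM in TSK. The groups overlapped in both sums. In such bulk libraries, fewer cells of a type and less RNA per cell cannot be told apart.

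Of the 49 genes, 48 had enough counts to be tested, and 6 of them (12.5%) differed between TSK and WT at an adjusted p below 0.05 in edgeR's quasi-likelihood test, against 3.39% of all 19971 genes tested. Follistatin-like 1 (Fstl1), chordin-like 1 (Chrdl1), Id3, Bmp6 and Tgfbr2 were higher in TSK skin (5 genes, where 2.71% of all genes were called higher). Myostatin (Mstn) was lower (1 gene, where 0.681% were called lower). The genes had been listed with earlier results of these data known, so these shares are not an independent comparison. The 6 genes thus held secreted antagonists, a BMP target, a ligand and the TGF-β type II receptor on the higher side, and a muscle-derived ligand on the lower side. The exception among the 49 was Gdf5, a ligand of joint formation, which was not tested and was at 0 to 0.39 CPM. All 6 calls were lost without WT 3, when only 60 genes passed among all genes tested and 18 of the members had an unadjusted p below 0.05. Bmp6 was also lost on leaving out any other single library, and Tgfbr2 passed in 1 of the 6 such fits.

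**Figure D1:**
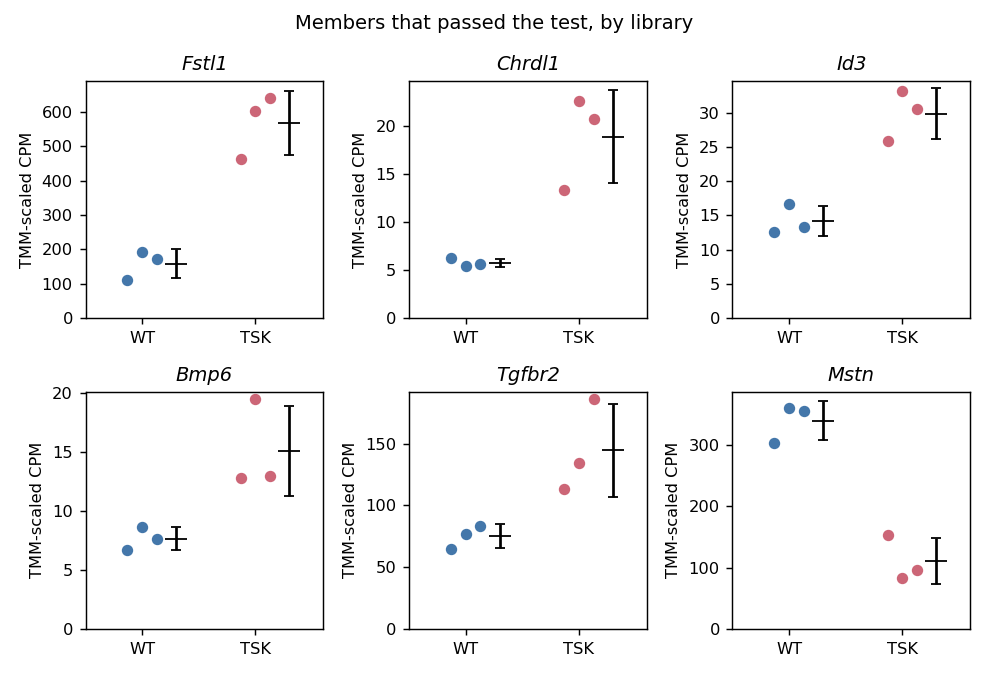
TMM-scaled CPM of the 6 genes that passed the test, with 1 point per library for WT (blue) and TSK (red) and a bar for the mean ± SD of 3 libraries. The TSK libraries lie above every WT library for Fstl1, Chrdl1, Id3, Bmp6 and Tgfbr2 and below every WT library for Mstn, where TSK 1 at 153 CPM is the nearest to WT.

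Across the 48 genes, the log2 fold change was above 0 in 34 and below 0 in 14, with 0.21 as the median, while the median over all genes tested was -0.03. These signs depend on the scaling. With library totals alone in place of TMM, the median of all genes moved to 0.25 (a shift of 0.28) and that of the 48 genes to 0.48, and 8 genes turned from below to above 0. Libraries of the groups did not overlap in 16 genes that were higher in TSK and 3 that were lower with TMM scaling, where 14.1% and 10.6% of all genes did so. With the CPM as deposited the counts were 27 and 2, and 29.1% and 2.58% of all genes did so. The split of calls into 14 higher and 1 lower with library totals alone is set against 8.44% and 0.466% of all genes (8.9% in either direction).

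**Figure D2:**
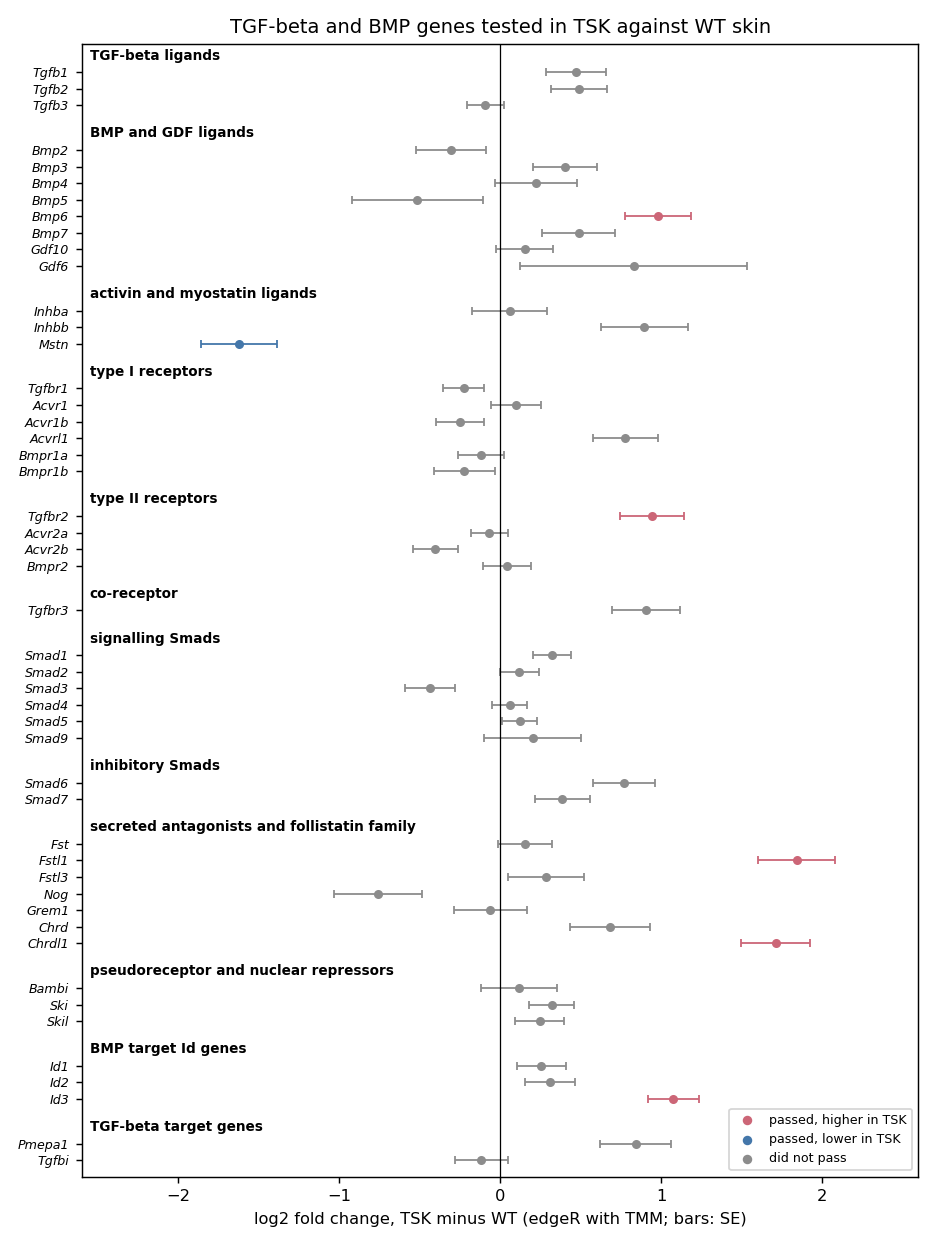
Log2 fold change (TSK minus WT, edgeR with TMM scaling) of the 48 genes tested, by role, with bars for the SE. Genes that passed the test are in red (higher in TSK) and blue (lower in TSK), and values run from -1.62 for Mstn to 1.84 for Fstl1.

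**Figure D3:**
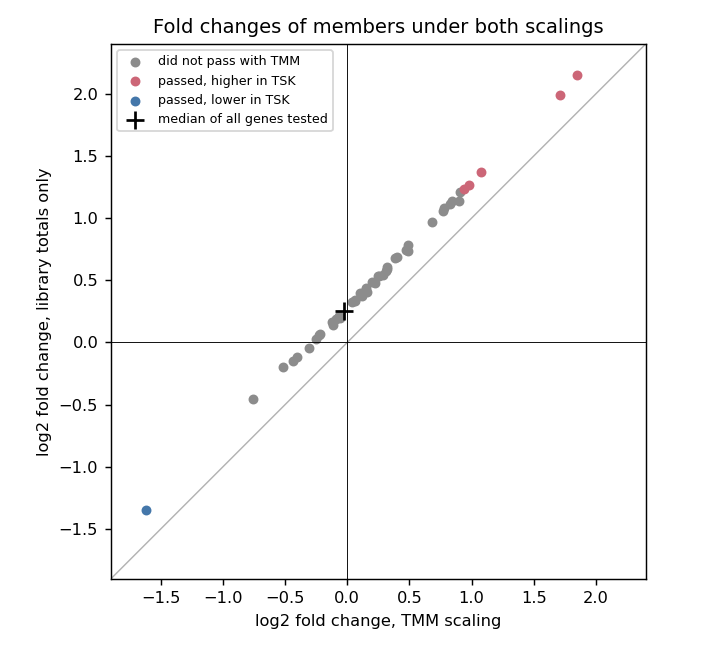
Log2 fold changes of the 48 genes with TMM scaling (horizontal) and with library totals alone (vertical), with the diagonal for equal values. All points lie above the diagonal by about the shift of the median of all genes (cross), and the order of the genes is nearly the same.

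The 3 TGF-β ligands had no member past the test, 2 had an unadjusted p below 0.05, and DESeq2 also called none. An unadjusted p below 0.05 was found for 20 of the 48 members and for 3998 of the 19971 genes tested. Tgfb1, the isoform most often tied to fibrosis, was at 23.5, 18.8 and 26.3 CPM in WT and at 27.9, 27.3 and 39.9 CPM in TSK. The lowest TSK library stood just above the highest WT library, with TSK 3 apart from the other two (log2 fold change 0.47, SE 0.19, adjusted p = 0.211). The 8 macrophage markers, of which none passed, summed to 263, 241 and 301 CPM in WT and 325, 440 and 893 CPM in TSK, where TSK 3 was also the highest, and their part in the Tgfb1 level was not tested. Tgfb2 was at 14.6, 22.5 and 21.1 CPM in WT and 27.5, 24.9 and 29.3 CPM in TSK, again without overlap (0.49, SE 0.17, adjusted p = 0.161). With library totals alone Tgfb2 was called higher (adjusted p = 0.0157), as it was with limma-trend. Tgfb3 had the highest level per length of the 3 isoforms, 7.91 ± 0.613 CPM per kilobase of exon in WT and 7.43 ± 0.167 in TSK (SD, n = 3). It was at 24.5, 28.6 and 27.1 CPM in WT and 24.7, 25.8 and 24.9 CPM in TSK, with overlap of the groups.

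Of the BMP and growth differentiation factor (GDF) ligands, 8 were tested and 1, Bmp6, passed. Bmp6, a ligand of the BMP receptors known also as the liver signal for iron, was at 6.68, 8.62 and 7.64 CPM in WT and 12.8, 19.4 and 12.9 CPM in TSK. TSK 2 was the highest, and every TSK library exceeded every WT library (log2 fold change 0.98, SE 0.20, adjusted p = 0.0394). Its adjusted p was 0.0519 to 0.142 with 1 library left out. Per 1000 CPM of the endothelial markers, Bmp6 was at 39.8, 38.5 and 42.9 in WT and 42.6, 47.0 and 52.2 in TSK, and the groups overlapped. They overlapped as well per 1000 CPM of the hair follicle, fibroblast or adipocyte markers, and the part of cell content in the higher Bmp6 level was not tested. Bmp6 lies on chromosome 13 (38345107 to 38500302, plus strand, mm10), and 224 bases of its transcripts match Txndc5 on the opposite strand, and the use of strand in counting is not stated. Of the other ligands, Bmp2, which induces bone and is made in the hair follicle, had the highest level per length of the group (6.46 ± 1.94 and 5.23 ± 0.397 CPM per kilobase). Its values were 28.8, 24.7 and 15.3 CPM in WT and 17.1, 19.9 and 18.7 CPM in TSK, so that WT 3 lay under all TSK libraries and the other WT libraries above them. The 7 BMP and GDF ligands that did not pass ranged from -0.51 for Bmp5 (WT 2.95, 10.2 and 8.39 CPM, TSK 6.43, 4.49 and 4.14 CPM) to 0.83 for Gdf6, which was at most 1.26 CPM in any library. Between them were Bmp4, the follicle papilla ligand (0.22), Bmp3 (0.40), Bmp7 (0.49) and Gdf10 (0.15), all with overlapping groups.

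Mstn, the brake on muscle growth that muscle fibres secrete, had the highest level per length of all 49 genes in WT skin, 126 ± 11.9 CPM per kilobase, and 40.8 ± 13.7 in TSK. It was at 302, 360 and 356 CPM in WT and 153, 83.1 and 95.7 CPM in TSK, in the order of the replicate numbers. The groups did not overlap, and TSK 1 was the nearest to WT (log2 fold change -1.62, SE 0.24, 3.07-fold lower, adjusted p = 0.0147). Without WT 3 its adjusted p was 0.071.

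Muscle markers were read beside it. Of the 16 adult muscle markers none passed edgeR's test in either direction (median log2 fold change -0.79), and 6 of 7 tested markers of developing muscle were lower in TSK (summed 145 to 293 CPM in WT and 28.1 to 38.1 in TSK). Per 1000 CPM of the summed adult muscle markers, Mstn was at 1.82, 1.19 and 1.34 in WT and 0.962, 0.585 and 0.733 in TSK. The groups did not overlap on this measure either, which was chosen after the values were seen and carries no test. The part of muscle content in the result was not tested beyond this ratio. Mstn lies on chromosome 1 (53061640 to 53068079, plus strand) and matched no other transcript over 50 or more bases at 95% identity.

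To show the DNA in front of the Mstn start and of the start of Tgfbr2, the receptor described next, the 250 bases before each RefSeq start (GRCm38.p6) are given, since both genes passed the test in opposite directions and neither window holds annotated exon sequence. Of the 49 genes, 31 matched the RefSeq promoter table, with 36 starts. Mstn is at chr1:53061390-53061639 on the plus strand and Tgfbr2 at chr9:116175364-116175613 on the minus strand. Capitals mark CANNTG, the E-box that muscle regulators bind, in Mstn, and CAGAC, the core of the Smad-binding element, in Tgfbr2, both searched on both strands.
Mstn: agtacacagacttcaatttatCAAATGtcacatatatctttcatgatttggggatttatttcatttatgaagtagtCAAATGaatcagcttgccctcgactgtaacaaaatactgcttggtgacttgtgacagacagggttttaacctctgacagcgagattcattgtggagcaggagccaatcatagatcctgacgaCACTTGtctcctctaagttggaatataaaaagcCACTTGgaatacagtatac
Tgfbr2: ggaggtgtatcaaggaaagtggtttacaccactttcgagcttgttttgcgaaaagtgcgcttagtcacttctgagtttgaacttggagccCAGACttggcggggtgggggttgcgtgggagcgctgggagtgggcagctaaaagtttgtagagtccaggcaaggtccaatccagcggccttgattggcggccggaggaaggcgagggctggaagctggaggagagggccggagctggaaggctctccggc
The Mstn window held 4 matches to CANNTG, which occurs in 66.2% of 32851 promoters of this length, and 2 further matches to CAGAC that are not in capitals. The Tgfbr2 window held 1 match to CAGAC, which occurs in 42.2% of promoters, and none to CANNTG or to GGCGCC, a GC-rich BMP Smad motif found in 9.59%. Over the members' 36 promoters, CAGAC was in 16, GGCGCC in 10 and CANNTG in 13. These matches describe the letters only. The windows of Id3 and Bmp6 (250 bases each) and of Fstl1 (182 bases) fall in exons annotated from an earlier start and are not shown.

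The activin genes, the remaining ligands, did not pass. Inhbb, the βB subunit of activin, was at 10.7, 4.99 and 10.2 CPM in WT and 18, 16.7 and 13.6 CPM in TSK, without overlap (log2 fold change 0.90, SE 0.27, adjusted p = 0.111). With DESeq2 its adjusted p was 0.0404. Inhba, the βA subunit, was at 2.89 to 4.04 CPM in WT and 3.04 to 4.46 CPM in TSK (0.06, adjusted p = 0.922).

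Among the receptors, only the TGF-β type II receptor passed, 1 of 11 genes tested with the co-receptor included. Tgfbr2, which binds TGF-β and activates the type I receptor Tgfbr1, was at 64.9, 77.0 and 83.6 CPM in WT and at 113, 134 and 186 CPM in TSK. Every TSK library exceeded the WT libraries, and TSK 3 stood highest (log2 fold change 0.94, SE 0.20, 1.92-fold, adjusted p = 0.042). Its adjusted p ran from 0.0336 without TSK 1 to 0.122, and it was above 0.05 in the other 5 fits. A stretch of 171 bases matches Ilf2 at 95.3% identity, so a small share of its reads is uncertain. It lies on chromosome 9 (116084293 to 116175360, minus strand). Its partner Tgfbr1 did not pass and was at 38.1, 45.1 and 47.6 CPM in WT and 37.4, 39.2 and 35.1 CPM in TSK, where WT 1 fell among the TSK libraries (-0.23, SE 0.13, adjusted p = 0.358, and 0.06 with library totals alone).

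A ratio of counts within a library does not depend on scaling. The ratio of Tgfbr2 to Tgfbr1 was 1.71, 1.71 and 1.75 in WT and 3.03, 3.42 and 5.30 in TSK. The WT libraries nearly coincided and lay below all TSK libraries. Tgfbr2 to Bmpr2, the type II receptor of the BMPs, gave 0.323, 0.328 and 0.367 in WT and 0.461, 0.555 and 0.948 in TSK, again without overlap. All such ratios were chosen after the values were seen and are given with no test, and among those computed the groups overlapped for Bmp6 to Bmp4 (0.701, 1.01 and 1.298 in WT, 1.06, 2.85 and 1.42 in TSK) and for Bmp6 to Bmp7 (0.385, 0.840 and 0.582 in WT, 0.662, 1.31 and 0.561 in TSK). Against the summed fibroblast markers, by contrast, Tgfbr2 was lower in TSK (10.4, 7.39 and 7.62 per 1000 CPM in WT, 5.71, 7.26 and 4.38 in TSK), without overlap. Against the summed endothelial markers the Tgfbr2 groups overlapped (387, 344 and 469 per 1000 CPM in WT, 376, 325 and 751 in TSK). Of the 11 fibroblast markers 3 passed as higher, none as lower (median log2 fold change 1.22), and the part of fibroblast content in the higher Tgfbr2 level was not tested.

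**Figure D4:**
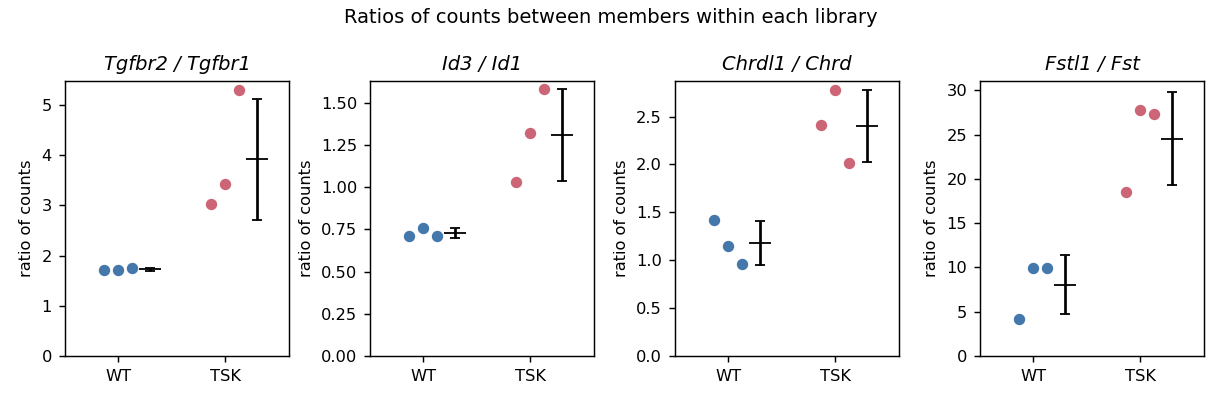
Ratio of counts between members of the same role within each library, for WT (blue) and TSK (red), with bars for the mean ± SD of 3 libraries. In all 4 ratios the TSK libraries lie above every WT library, with the WT libraries of Tgfbr2 to Tgfbr1 between 1.71 and 1.75.

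The co-receptor betaglycan (Tgfbr3), which presents TGF-β to the type II receptor, came closest to the threshold among genes that did not pass. It was at 69.8, 101 and 78.9 CPM in WT and 122, 151 and 196 CPM in TSK, with the same order of the TSK libraries as Tgfbr2 and no overlap. The Tgfbr3 groups overlapped per 1000 CPM of the fibroblast markers (11.2, 9.69 and 7.198 in WT, 6.14, 8.15 and 4.63 in TSK). Its log2 fold change was 0.91 (SE 0.21, adjusted p = 0.0568), just outside, where Tgfbr2 was just inside. In DESeq2 its adjusted p was 0.00114. The 6 type I receptors had none past the test, 1 had an unadjusted p below 0.05, and DESeq2 called 1, Acvrl1. Acvrl1, the endothelial type I receptor ALK1, was at 12.5, 18.5 and 16 CPM in WT and 20.7, 27.2 and 32.8 CPM in TSK (0.78, SE 0.20, adjusted p = 0.0786). Its groups did not overlap, and the endothelial markers (8 genes, 2 called higher) summed to 168 to 224 CPM in WT and 248 to 414 in TSK. Per 1000 CPM of that sum the Acvrl1 groups overlapped.

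None of the remaining receptors passed. Bmpr1a, a BMP type I receptor of hair follicle and epidermis, had the highest mean level per length of the type I receptors, 18.9 ± 1.70 CPM per kilobase in WT and 17.4 ± 2.05 in TSK. It was at 108, 126 and 127 CPM in WT and 118, 118 and 95.4 CPM in TSK (-0.12, adjusted p = 0.693, and 0.16 with library totals alone). Acvr1b, the activin type I receptor, was at 19.2 ± 1.02 CPM per kilobase in WT and 16.2 ± 2.84 in TSK, so that the order of the pair changed between the groups and the levels lay within their spread. Of the activin and BMP type II receptors, Acvr2b was at 14.1, 17.6 and 18.1 CPM in WT and 13.2, 12.1 and 12.3 CPM in TSK, without overlap (-0.40, SE 0.14, adjusted p = 0.162). Acvr2a (-0.07) and Bmpr2 (0.04), like Acvr1 (0.10) and Bmpr1b (-0.22), had overlapping groups, and the sign of Acvr2a and Bmpr1b turned with library totals alone.

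**Figure D5:**
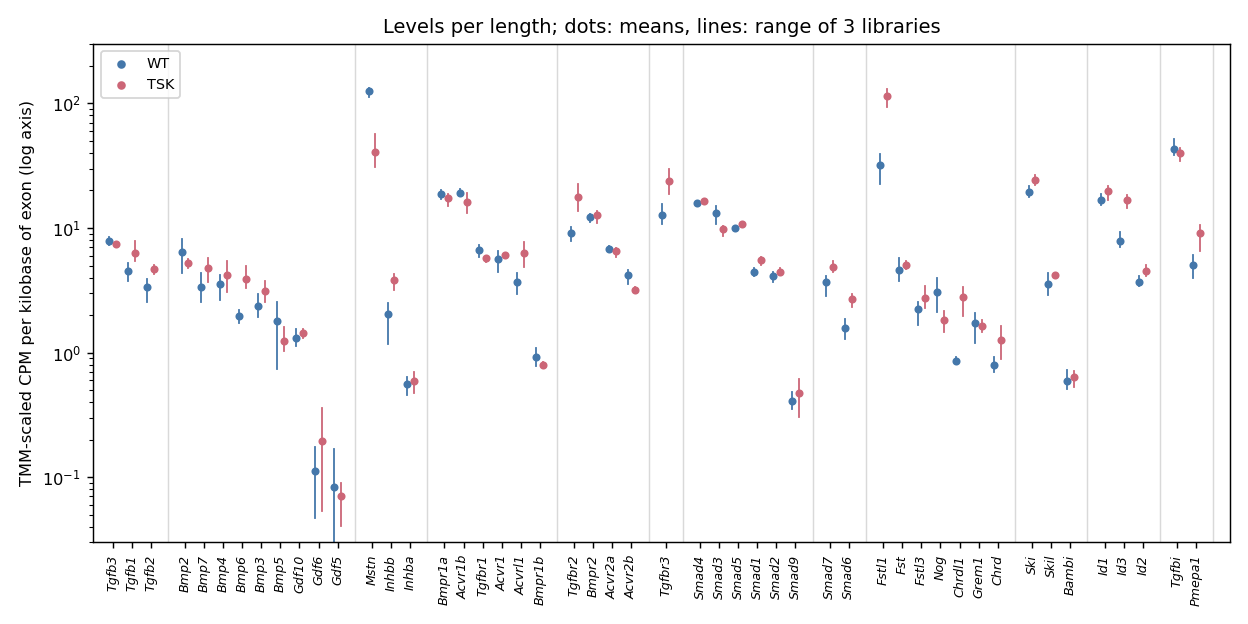
Mean TMM-scaled CPM per kilobase of exon (log axis) of all 49 genes in WT (blue) and TSK (red), by role, with lines for the range of 3 libraries. Mstn is the highest in WT at 126 CPM per kilobase (40.8 in TSK), followed by Tgfbi at 43.1 (39.7 in TSK) and Fstl1 at 32.2, which is the highest in TSK at 115, and Gdf5, at 0 in 1 WT library, is cut off at the lower edge.

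The 6 Smads that carry the signal had none past the test, 2 had an unadjusted p below 0.05, and DESeq2 called none. Smad3, which carries TGF-β and activin signals, was at 59.8, 76.3 and 82.7 CPM in WT and 57.9, 56.5 and 47.4 CPM in TSK. WT 1 stood close above the highest TSK library (-0.44, SE 0.15, adjusted p = 0.164), and the groups overlapped in the CPM as deposited. Smad1, which carries BMP signals, was at 27.0, 25.8 and 29.9 CPM in WT and 36.5, 31.6 and 35.2 CPM in TSK, without overlap (0.32, SE 0.12, adjusted p = 0.18). The ratio of Smad1 to Smad3 was 0.451, 0.338 and 0.361 in WT and 0.63, 0.559 and 0.741 in TSK, a ratio chosen after the values were seen. Smad4, the shared partner, had the highest level per length of the Smads (15.8 ± 0.365 and 16.4 ± 0.661 CPM per kilobase). It was at 59.2, 57.0 and 59.4 CPM in WT and 62.2, 62.5 and 58.1 CPM in TSK (0.06, adjusted p = 0.811). Smad2 (0.12), Smad5 (0.12) and Smad9 (0.20) did not pass either. Smad5 was at 72.0 to 76.6 CPM in WT and 78.5 to 81.6 CPM in TSK, without overlap.

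The inhibitory Smads, which pathway activity induces and which block the receptors, were both without overlap and both short of the threshold. Smad6, which acts mainly on BMP signals, was at 4.12, 4.99 and 5.96 CPM in WT and 8.66, 9.54 and 7.48 CPM in TSK (0.77, SE 0.19, adjusted p = 0.0698, and 0.0304 in DESeq2). Its groups overlapped per 1000 CPM of the endothelial markers (24.6, 22.3 and 33.4 in WT, 28.8, 23.1 and 30.2 in TSK). Smad7, which acts on both arms and had the higher level per length of the pair, was at 13, 18.6 and 18.6 CPM in WT and 20.2, 24.5 and 20.9 CPM in TSK (0.39, SE 0.17, adjusted p = 0.249).

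The secreted antagonists and the follistatin family held the 2 greatest rises among the 48 genes. Fstl1, a secreted glycoprotein related to follistatin that is known to bind BMPs, was at 111, 192 and 172 CPM in WT and 462, 601 and 640 CPM in TSK. WT 1 and TSK 1 were the lowest of their groups, and the gap between the groups was wider than either range (log2 fold change 1.84, SE 0.24, 3.59-fold, adjusted p = 0.0107). Per length it went from 32.2 ± 8.61 to 115 ± 19.1 CPM per kilobase, the highest of all 49 genes in TSK skin. Fstl1 lies on chromosome 16 (37776873 to 37836514, plus strand), and up to 535 bases match Gm11261 at 96.3% identity and 399 bases match Ppp2r5a at 96.0%, so that reads of these stretches may be shared. Without WT 3 its adjusted p was 0.0561.

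Chrdl1, a chordin-like antagonist that binds BMPs, was at 6.23, 5.44 and 5.59 CPM in WT and 13.4, 22.6 and 20.7 CPM in TSK. The WT libraries were close together, and TSK 1 was the nearest to them (log2 fold change 1.71, SE 0.21, 3.28-fold, adjusted p = 0.00913). It was 1 of the genes past the stricter thresholds of the study (fold above 2.5, adjusted p below 0.01) in edgeR, where 0.255% of all genes were called higher and 0.0351% lower, and the only member there. Chrdl1 lies on the X chromosome (143285674 to 143394262, minus strand) and matched no other transcript over 50 or more bases at 95% identity. Without WT 3 its adjusted p was also 0.0561.

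The summed fibroblast markers were also higher in every TSK library than in WT, with 3 of 11 called. Per 1000 CPM of those markers, Fstl1 was at 17.7, 18.4 and 15.7 in WT and 23.3, 32.5 and 15.1 in TSK, and Chrdl1 at 0.998, 0.522 and 0.51 in WT and 0.675, 1.22 and 0.487 in TSK. The groups overlapped in both, with TSK 3, the library with the most fibroblast marker RNA, the lowest of all 6 and TSK 2 the highest. The part of fibroblast content in the higher levels of Fstl1 and Chrdl1 was not tested. From separate single-cell data of TSK skin, the study reports Fstl1 among the genes enriched in keratinocytes.

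None of the other antagonists passed. Follistatin (Fst), which traps activin and myostatin, was at 26.3, 19.2 and 17.3 CPM in WT and 25.0, 21.6 and 23.5 CPM in TSK (0.16, adjusted p = 0.667). The ratio of Fstl1 to Fst was 4.20, 9.97 and 9.98 in WT and 18.5, 27.8 and 27.3 in TSK. Chordin (Chrd), which sequesters BMPs, was at 4.40, 4.73 and 5.78 CPM in WT and 5.55, 8.14 and 10.2 CPM in TSK, where TSK 1 fell among the WT libraries (0.68, SE 0.25, adjusted p = 0.169). The ratio of Chrdl1 to Chrd was 1.42, 1.15 and 0.963 in WT and 2.41, 2.78 and 2.02 in TSK, and the groups overlapped in neither ratio. Noggin (Nog), the follicle's BMP antagonist, was the only member of the group besides Grem1 with a fold change below 0. It was at 3.56, 6.67 and 5.47 CPM in WT and 3.11, 3.65 and 2.49 CPM in TSK, with TSK 2 just above WT 1 (-0.76, SE 0.27, adjusted p = 0.169). Grem1, a BMP antagonist of fibroblasts (-0.06, and 0.20 with library totals alone), and Fstl3, an activin antagonist (0.29), had overlapping groups.

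The pseudoreceptor Bambi, which mimics a type I receptor without a kinase, and the nuclear repressors of Smads had no member past the test, 1 had an unadjusted p below 0.05, and DESeq2 called none. Ski had the highest level per length of the 3 (19.4 ± 2.07 and 24.3 ± 2.14 CPM per kilobase) and was at 98.6, 121 and 105 CPM in WT and 124, 134 and 147 CPM in TSK. TSK 1 stood close above WT 2 (0.32, SE 0.14, adjusted p = 0.242). Skil was at 28.3, 33.5 and 41.9 CPM in WT and 40.3, 41.7 and 41.0 CPM in TSK (0.25, adjusted p = 0.416), where WT 3 was above every TSK library. Bambi was at 2.61 to 3.67 CPM in WT and 2.67 to 3.58 CPM in TSK (0.12).

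The Id genes, which BMP Smads induce and whose proteins block helix-loop-helix factors, gave 1 call of 3. Id3 was at 12.5, 16.7 and 13.3 CPM in WT and 25.9, 33.2 and 30.5 CPM in TSK. The lowest TSK library was well above the highest WT library (log2 fold change 1.08, SE 0.16, 2.11-fold, adjusted p = 0.0147). Without WT 3 its adjusted p was 0.075. Id3 lies on chromosome 4 (136143497 to 136145755, plus strand) and matched no other transcript over 50 or more bases at 95% identity. Id1, the member with the highest level per length (16.7 ± 1.92 and 19.98 ± 2.90 CPM per kilobase), was at 17.6, 21.9 and 18.8 CPM in WT and 25.1, 25.2 and 19.3 CPM in TSK, where TSK 3 lay among the WT libraries (0.26, SE 0.15, adjusted p = 0.393). Id2 was at 10.1, 8.36 and 8.32 CPM in WT and 10.8, 12.3 and 10.1 CPM in TSK (0.31, adjusted p = 0.31).

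The Id genes were also compared within each library, by ratios chosen after the values were seen. The ratio of Id3 to Id1 was 0.712, 0.760 and 0.709 in WT and 1.03, 1.32 and 1.58 in TSK, and that of Id3 to Id2 was 1.24, 1.99 and 1.597 in WT and 2.39, 2.70 and 3.03 in TSK. The groups overlapped in neither. Endothelial cells, a known site of Id gene expression, were followed through their markers, and Id3 per 1000 CPM of the endothelial markers was at 74.7, 74.3 and 74.6 in WT and 86.0, 80.2 and 123 in TSK. These groups did not overlap, and the WT libraries nearly coincided. Per 1000 CPM of the fibroblast markers the Id3 groups overlapped (1.21 to 2.01 in WT, 0.718 to 1.79 in TSK).

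The 2 TGF-β target genes did not pass in edgeR, 1 had an unadjusted p below 0.05, and DESeq2 called 1, Pmepa1. Pmepa1, which TGF-β induces and whose protein dampens Smad signalling, was at 19.4, 25.7 and 29.8 CPM in WT and 32.3, 52.1 and 49.8 CPM in TSK, without overlap (0.84, SE 0.22, adjusted p = 0.0765, and 0.0111 in DESeq2). Tgfbi, a matrix protein named for its induction by TGF-β, was at 195, 144 and 148 CPM in WT and 155, 131 and 164 CPM in TSK. WT 1 was the highest of all 6 libraries and the others interleaved (-0.12, adjusted p = 0.752, and 0.14 with library totals alone).

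DESeq2, the tool of the study, called 10 of the members higher and 1 lower at an adjusted p below 0.05, against 5.13% and 1.85% of all genes tested (6.98% in either direction). Besides the 6 genes of edgeR these were Inhbb, Acvrl1, Tgfbr3, Smad6 and Pmepa1, all of which had a log2 fold change of 0.77 to 0.91 and no overlap between the groups in edgeR. With the fold change and p-value thresholds of the study, DESeq2 left Fstl1 and Chrdl1 as higher and Mstn as lower, where 1.4% and 0.309% of all genes passed.

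Of 78 further genes of the pathways, listed by name with earlier results of these data known, 61 were tested and 4 (6.56%) passed. Of these 4, 3 were higher and 1 lower in TSK. Among all genes tested 3.39% passed (2.71% higher and 0.681% lower). Bmp1, a protease that cleaves chordin and procollagen, was at 48.1, 58.6 and 63.6 CPM in WT and 110, 122 and 166 CPM in TSK (log2 fold change 1.23, SE 0.19, adjusted p = 0.0171). Nbl1, a BMP antagonist of the DAN family, was at 30.3, 25.8 and 32.1 CPM in WT and 58.4, 65.8 and 95.3 CPM in TSK (1.32, SE 0.20, adjusted p = 0.0148). TSK 3 was the highest library for both, and neither gene had overlapping groups. The ligand gene Bmp8a had 5 counts in the 3 WT libraries together and 123 in the 3 TSK libraries, a ratio of 19.7 after scaling to the TMM library sizes (exact 95% interval 8.20 to 61.6, for counting error only, adjusted p = 0.0153). TSK 3 held 69.8 of these counts, against 21.9 in TSK 1 and 31 in TSK 2, and without TSK 3 the log2 fold change went from 4.20 to 3.60 (adjusted p = 0.0246). A stretch of 192 bases of Bmp8a matches Gm17244 at 99.5% identity, so its reads there may be shared. Each of these 3 genes passed in 5 of the 6 fits with a library left out and failed without WT 3.

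The genes that hold TGF-β latent in the matrix or release it (Ltbp1 to Ltbp4, Thbs1, Itgav, Itgb6, Itgb8 and Furin) gave 0 of 9 calls in edgeR and in DESeq2, and 6 had an unadjusted p below 0.05. Of these 6, Itgav (log2 fold change -0.30) and Itgb6 (-0.52) were lower in TSK, and Ltbp1, Ltbp3, Ltbp4 and Furin were higher. With library totals alone 4 of the 9 were called higher. Ltbp1, which ties latent TGF-β to fibrillin microfibrils, was at 50.2, 44.4 and 42.0 CPM in WT and 55.3, 60.8 and 68.6 CPM in TSK, without overlap (0.43, SE 0.13, adjusted p = 0.111). The values of Ltbp1, Itgav and Itgb6 were picked out after they were seen.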

How the data were processed

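Total RNA depleted of ribosomal RNA was made into stranded libraries and read as single ends of 50 bases. According to the methods and labels, the authors demultiplexed with bcl2fastq 2.19.1.403, aligned with STAR to mm10 and quantified genes with Ensembl annotation in Partek Flow 11.0; whether counting used strand is not given in the sources used here. The authors deposited estimated counts per gene, of which 43.3% to 45.4% of non-zero values per library were whole (within 0.001), and CPM. The tests were planned for counts, so the estimated counts were rounded first. The deposited CPM entered the limma-trend alternatives and the overlap counts.

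Genotypes were compared with edgeR 4.0.16 (R 4.3.3) by the quasi-likelihood F test with TMM and filterByExpr, with Benjamini-Hochberg adjustment over 19971 genes. Fold changes are TSK minus WT on the log2 scale. DESeq2 1.42.0 and limma 3.58.1 were alternatives. The fits were tested on simulated data. Libraries of a group differed from each other by a chi-square per degree of freedom of 8.85 for WT 2 against WT 3. For the other pairs it was 35.8 to 75.7. No library was thus a copy of another, and a second preparation of the same mouse was not tested. P-values measure the spread between these mice, and 3 against 3 allow no permutation p below 0.1.

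The members and lists were chosen with earlier results of these data known. Values per library were given for members that passed, for the 2 members of lowest p in a group with none, and for the member of highest level per length in each group. Inhbb, Acvr2b, Bmp5, Fst, Nog, Chrd, Id2 and Smad5 were added after their values were seen. Further pathway genes were named where they passed, except 1 that is not reported here. Transcripts were compared with BLAST 2.17.0 at 95% identity over at least 50 bases against GENCODE M21.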

Additional observations from a re-analysis of the deposited data

How the results depend on the processing

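The number of members called depended on the tool and the scaling. Against 5 higher and 1 lower, DESeq2 gave 10 higher, edgeR without a low-count filter 10, edgeR on library totals alone 14, and limma-trend on the deposited CPM 14 with either pseudocount (0.1 or 1). Calls among all genes rose as well, from 678 to 1533, 1387, 1778, and 1860 and 1871 in these settings. The thresholds of the study gave 1 higher and 0 lower in edgeR and 2 higher in DESeq2. For the further pathway genes (3 higher, 1 lower) these settings gave 8, 7, 18, and 17 and 20 higher, and 0 higher and 0 lower (edgeR) or 1 higher (DESeq2). With 1 library left out, members called ran from 0 to 6 higher and 0 to 1 lower, and further genes from 0 to 5 higher and 0 to 2 lower, with the zeros without WT 3, while calls among all genes ran from 60 without WT 3 to 1260 without WT 1. With limma-voom Bmp6 was lost (adjusted p = 0.0551). The causes were not tested.

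Same-numbered libraries did not deviate together (correlations 0.0112, 0.167 and -0.0938). With 3 libraries per group this does not settle whether the numbers pair the mice. With the replicate number as a block, 8 members and 7 further genes were higher, 1 of each was lower, and 794 of all genes were called.

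Over 831 alternative values of 52 genes, 43 newly passed and 20 no longer passed. In 38, the sign turned, none for a gene past the threshold in either fit. On library totals alone these were Tgfb3 (0.19), Tgfbr1 (0.057), Acvr1b (0.026), Bmpr1a (0.16), Bmpr1b (0.068), Acvr2a (0.21), Grem1 (0.20) and Tgfbi (0.14). With limma-trend and pseudocounts of 0.1 and 1 they were Tgfb3 (0.19 and 0.18), Bmp2 (0.020 and 0.017), Tgfbr1 (0.056 and 0.055), Acvr1b (0.0178 and 0.0177), Bmpr1a (0.16 and 0.15), Bmpr1b (0.066 and 0.057), Acvr2a (0.21 and 0.20), Grem1 (0.25 and 0.22) and Tgfbi (0.17 and 0.17). With 1 library left out, log2 fold changes ran from -0.0077 to 0.40 in Bmp4, -0.082 to 0.19 in Inhba, -0.025 to 0.23 in Acvr1, -0.11 to 0.0022 in Acvr2a, -0.014 to 0.14 in Bmpr2, -0.040 to 0.44 in Smad9, -0.26 to 0.13 in Grem1 and -0.19 to 0.061 in Tgfbi. Depth limited Gdf5 and Gdf6, which had few counts.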
